A study of Mus musculus with 2 samples.

Results

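Ccl2, Ccl7, Ccl11, Ccl19 and Ccl21a are CC chemokines made largely by stroma and vessels, and their transcripts were followed across the cell types of mouse limb muscle. The 5 genes were chosen by symbol, out of 32245 symbols in the feature table, and they occupied 7 of its 32285 rows. Single mononuclear cells were profiled by 10x Genomics 3' RNA sequencing in 2 libraries, 1 labelled DMSO, the vehicle, and 1 labelled MVC, for the drug Maraviroc. Per the methods of the study, the mice were aged C57BL/6 animals injected intraperitoneally at intervals with drug or vehicle. The labels name no transgene or engineered allele in either group. Both were sorted as live cells after removal of red blood cells, and which dosing scheme and how many mice stood behind each library was not given in the labels. After cells with fewer than 500 detected genes or more than 10% mitochondrial UMIs (unique molecular identifiers, each a counted transcript) were left out, 5437 of 5812 DMSO barcodes and 5454 of 6047 MVC barcodes remained.

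Chemokines are small secreted proteins that bind heparan sulphate on cells and matrix and guide leukocytes through G protein-coupled receptors. Ccl2 and Ccl7 attract monocytes through Ccr2, and Ccl7 and Ccl11 (eotaxin) attract eosinophils through Ccr3. Ccl19 and Ccl21 are the ligands of Ccr7, which brings T cells and dendritic cells to lymph nodes, Ccl21 being made by lymphatic endothelium. In injured muscle, Ccl2 from resident cells is known for recruiting monocytes that become macrophages.

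Each group was 1 library, so no difference between DMSO and MVC had a replicate check and no test was made. Levels, written CPM, are the UMIs of a gene per 1000000 UMIs of the cells named, summed over those cells, with exact 95% Poisson intervals. Ratios are MVC over DMSO with exact conditional intervals, and shares of cells have exact binomial (Clopper-Pearson) intervals. All of these cover counting error only, not the spread between mice. A gene was counted as past the fold when its ratio was at least 1.5 or at most its inverse and it had at least 20 UMIs in the cells compared.

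The median kept cell held 5802 UMIs in the DMSO library and 5195 in the MVC library, and 8 barcodes were shared between the kept cells of both. Cells were clustered without the chemokine system genes, so that no chemokine level helped to draw a cluster, and clusters were named from lists of markers as "X-like". Transcripts of fibro-adipogenic progenitors (FAPs) in other cells differed between the libraries. Dcn, which FAPs make in quantity, stood at 54.3 CPM in DMSO and 130 CPM in MVC capillary EC-like cells, at 78.2 and 536 CPM in MuSC-like cells (muscle stem cells) and at 159 and 1751 CPM in B cell-like cells. It was lower in MVC in pericyte-like (1004 and 651 CPM), Schwann-like (1346 and 486 CPM) and perineurial-like cells (9535 and 7876 CPM). If all the Dcn of a class came with RNA of FAP-like cells of the same library, that RNA would carry member UMIs too. Their number is given beside some of the counts below.

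By UMIs summed over all cells, the 5 members divided by chromosome. This did not extend to the other chromosome 11 ligands Ccl8 and Ccl12, with ratios of 1.84 (1.63 to 2.08) and 2.69 (2.17 to 3.35). Ccl2, Ccl7 and Ccl11 lie within 27.4 kb on chromosome 11, and Ccl19 and Ccl21a within 19.5 kb on chromosome 4 (GENCODE M21 annotation of GRCm38, the mm10 build of the files). Ccl2 lies at chr11:82035571-82037453, Ccl7 at chr11:82045712-82047525 and Ccl11 at chr11:82057823-82062955, all on the plus strand, and Ccl19 at chr4:42754525-42756577 and Ccl21a at chr4:42772860-42773993, both on the minus strand. Ccl2 had 42792 UMIs in DMSO and 34147 in MVC, or 1104 and 961 CPM, a ratio of 0.871 (0.858 to 0.883). Ccl7 had 17327 and 13296 UMIs, a ratio of 0.837 (0.818 to 0.856), and Ccl11 had 20052 and 17354 UMIs, a ratio of 0.944 (0.925 to 0.964). The members on chromosome 11 were thus slightly lower in MVC by this measure. Ccl2 nevertheless had at least 1 UMI in more MVC cells, 28.0% (26.8% to 29.2%) against 24.3% (23.2% to 25.5%), and with every cell thinned to 2000 UMIs (447 DMSO and 981 MVC cells with fewer were left out) its log2 ratio turned from -0.20 to 0.070. Ccl19 had 1143 UMIs in DMSO and 1641 in MVC, a ratio of 1.57 (1.45 to 1.69). Ccl21a had 2982 and 4860 UMIs, a ratio of 1.78 (1.70 to 1.86). Of the 5 members, 2 (Ccl19 and Ccl21a) were past the fold as higher in MVC and 0 as lower, where 9.52% of the 19140 genes with enough UMIs were past the fold as higher and 7.54% as lower.

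**Figure D1:**
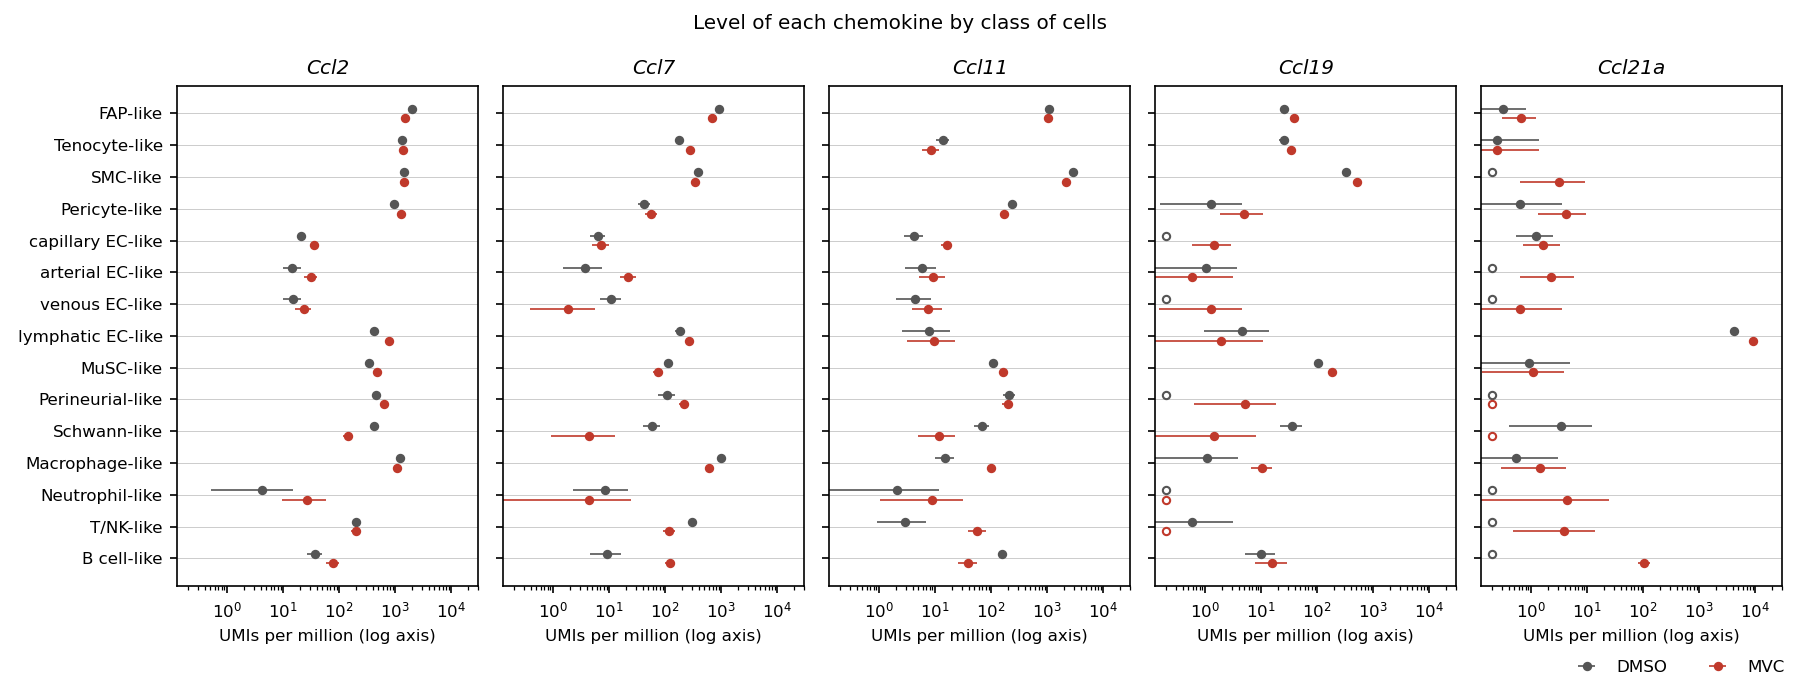
Level in CPM (log axis) of each chemokine in 15 classes of cells, in the DMSO library (grey) and the MVC library (red), with exact 95% Poisson intervals; open points at the left edge mark classes with 0 UMIs, and intervals that reach below the axis stop at its left edge. Ccl2, Ccl7 and Ccl11 were spread over several stromal classes, and Ccl21a stood above 1000 CPM in lymphatic EC-like cells alone among the classes.

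FAP-like cells, recognised by Pdgfra, Dcn, Dpt and Gsn, held 58.6% of the Ccl2 UMIs of the DMSO library and 59.3% of those of the MVC library, 65.9% and 70.1% for Ccl7, and 68.1% and 80.9% for Ccl11. In the 1177 DMSO and 1428 MVC cells of this class, Ccl2 was at 1969 CPM (1945 to 1993) in DMSO and 1486 CPM (1465 to 1506) in MVC, a ratio of 0.755 (0.741 to 0.769). Ccl7 was at 897 and 683 CPM, a ratio of 0.762 (0.741 to 0.783). Ccl11 was nearly level, at 1073 and 1030 CPM, a ratio of 0.960 (0.938 to 0.983). Ccl19 was at 25.1 and 38 CPM, a ratio of 1.51 (1.31 to 1.74). Ccl19 was the 1 member past the fold among the 4 with enough UMIs, where 14.8% of 14978 genes were higher and 5.05% lower by as much.

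The FAP-like class comprised 4 clusters, and the chromosome 11 genes differed more between these clusters than between libraries. The cluster led by Pi16 and Cd248 had 248 CPM of Ccl2 in DMSO and 351 in MVC. The cluster led by Smoc2 and Bmper had 559 and 631 CPM. The clusters led by Ifi205, Ifi203 and Ptx3 and by Sdk1, Dmkn and Sbsn stood far above both, at 2931 and 2383 CPM and at 3197 and 2895 CPM. Ccl2 was lower in MVC in both clusters rich in it, with ratios of 0.813 (0.791 to 0.836) and 0.906 (0.878 to 0.934), and higher in MVC in the other two, with ratios of 1.13 (1.08 to 1.19) for Smoc2 and 1.42 (1.2 to 1.68) for Pi16. In the Pi16 cluster the 3 cells with the most Ccl2 held 84.9% of its DMSO UMIs and 77.2% of its MVC UMIs.

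Ccl7 followed a similar order of clusters, from 51.4 CPM in DMSO and 71.7 in MVC for the Pi16 cluster, through 391 and 345 CPM for the Smoc2 cluster, to 1128 and 993 CPM for the Sdk1 cluster and 1439 and 1253 CPM for the Ifi205 cluster. Its ratio was 0.883, 0.880 and 0.871 in the Smoc2, Sdk1 and Ifi205 clusters, each with an interval below 1, and 1.40 (0.958 to 2.06) in the Pi16 cluster. Ccl11 was more even, between 493 CPM (Pi16, DMSO) and 1505 CPM (Ifi205, DMSO). It was higher in MVC in 3 clusters, with ratios from 1.09 to 1.14, and lower in the Ifi205 cluster, 0.814 (0.783 to 0.845). Ccl11 had a UMI in 75.6% to 82.6% of cells in every one of the 8 combinations of FAP-like cluster and library, against 28.3% in both libraries for Ccl2 in the Smoc2 cluster.

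Ccl19 was lower in all 4 clusters than in SMC-like cells, described below. It was at 42.2 CPM in DMSO and 66.6 CPM in MVC in the Ifi205 cluster, a ratio of 1.58 (1.3 to 1.92), at 21.2 and 39.6 CPM in the Sdk1 cluster and at 16.1 and 27.7 CPM in the Smoc2 cluster. In the Pi16 cluster it had 2 UMIs in DMSO and 0 in MVC. Unlike Ccl2 and Ccl11, it was thus higher in MVC, by summed level, in each of the 3 FAP-like clusters with at least 20 of its UMIs. In the Ifi205 cluster 68 of 393 DMSO cells and 76 of 367 MVC cells were positive. Their median was nearly level, at 146 and 148.5 CPM, while the highest cell stood at 2885 and 6252 CPM. Over positive cells the median was 130 and 155 CPM in the Sdk1 cluster and 110 and 135 CPM in the Smoc2 cluster.

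The make-up of the FAP-like class moved with these values. The Smoc2 cluster, low in Ccl2, made up 42.6% (39.8% to 45.5%) of FAP-like cells in DMSO and 51.5% (48.8% to 54.1%) in MVC, and the Ifi205 cluster 33.4% (30.7% to 36.2%) and 25.7% (23.5% to 28.1%). With the MVC clusters weighted as in DMSO, an alternative chosen after the values were seen, the ratio over the class was 0.886 for Ccl2, 0.878 for Ccl7 and 0.968 for Ccl11, in place of 0.755, 0.762 and 0.960.

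**Figure D2:**
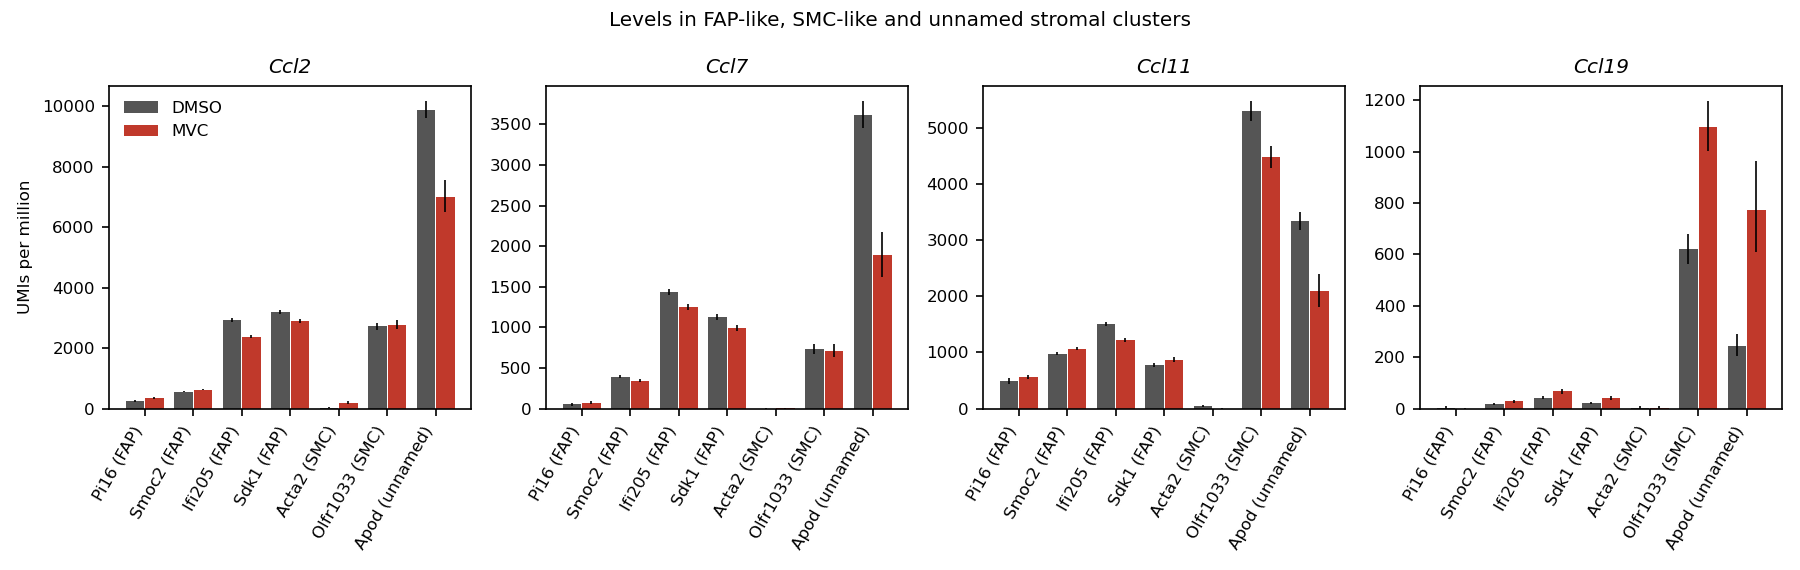
Level in CPM of Ccl2, Ccl7, Ccl11 and Ccl19 in the 4 FAP-like clusters, the 2 SMC-like clusters and an unnamed stromal cluster, each marked by its first leading gene, in the DMSO (grey) and MVC (red) libraries, with exact 95% Poisson intervals. Ccl2 and Ccl7 were highest in the Apod cluster, and Ccl11 and Ccl19 in the Olfr1033 cluster, where Ccl19 was at 620 CPM in DMSO and 1095 CPM in MVC.

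Within FAP-like cells Ccl2 was concentrated in a minority. The median cell had 0 Ccl2 UMIs in both libraries, the cell at the 90th percentile 5031 CPM in DMSO and 4368 CPM in MVC, and the highest cell 43116 and 46296 CPM. Ccl11, in contrast, had a median of 494 CPM in DMSO and 565 CPM in MVC. In B cell-like cells, which should lack these transcripts, Ccl2 had a UMI in 4.83% of DMSO and 14.2% of MVC cells and Ccl11 in 1.45% and 5.66%, at median depths of 5088 and 5412 UMIs against 10366 and 9232 UMIs in FAP-like cells. Ccl2 and Ccl7 were found in the same FAP-like cells more often than the product of their shares. With FAP-like cells thinned to 2000 UMIs, 20.1% of DMSO cells and 16.4% of MVC cells had both, 1.73 and 2.0 times the product. The same pair stood at 2.32 and 2.78 times in the Smoc2 cluster and at 1.24 and 1.36 times in the Ifi205 cluster. For Ccl2 with Ccl11, also a neighbour on chromosome 11, the figures over the class were 1.03 and 1.06 times. These are descriptions of cells that share a library.

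Smooth muscle-like (SMC-like) cells showed a sharp division of the chemokines between their clusters. One cluster of 65 DMSO and 48 MVC cells was led by the contractile genes Acta2, Myh11 and Tagln. The other, of 101 DMSO and 76 MVC cells, was led by Olfr1033, Gm13889, Sdc1, Id4 and Lgr5. In DMSO and MVC it carried Acta2 at 698 and 2001 CPM and Myh11 at 603 and 1056 CPM beside the pericyte marker Rgs5 at 4845 and 3091 CPM and Notch3 at 410 and 540 CPM, and Pdgfra at 4.25 and 4.35 CPM. It is called the Olfr1033 cluster here, since none of its leading genes is a listed marker of smooth muscle. Its mean log2 fold over other cells was 2.96 for the smooth muscle list and 1.90 for the pericyte list. The pericyte marker Abcc9 was at 450 and 405 CPM, against 28.8 and 1.96 CPM in the Acta2 cluster. Kcnj8 was at 126 and 139 CPM, against 11.2 and 3.93 CPM. Cspg4, also on the pericyte list, went the other way, at 1.42 and 8.71 CPM against 128 and 98.2 CPM.

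Ccl11 in the Olfr1033 cluster was at 5301 CPM (5132 to 5473) in DMSO and 4485 CPM (4293 to 4682) in MVC, and 88.1% and 88.2% of its cells had a UMI. In the Acta2 cluster Ccl11 had 25 UMIs in DMSO and 1 in MVC. Ccl2 was at 2724 and 2773 CPM in the Olfr1033 cluster, a ratio of 1.02 (0.948 to 1.09), and at 33.6 and 198 CPM in the Acta2 cluster, where 3 cells held 71.4% and 85.1% of the UMIs. Ccl7 was at 732 and 710 CPM in the Olfr1033 cluster, with 0 UMIs in DMSO and 1 in MVC in the Acta2 cluster. Over the whole SMC-like class Ccl11 had a ratio of 0.752 (0.712 to 0.794). The 177 cells of the Olfr1033 cluster thus held most of the members' UMIs of the class.

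Ccl19, a ligand of Ccr7, also had its highest level of any cluster in the Olfr1033 cluster. It had 437 UMIs in DMSO and 503 in MVC there, or 620 CPM (563 to 681) and 1095 CPM (1001 to 1195), a ratio of 1.77 (1.55 to 2.01), and 1 UMI in each library in the Acta2 cluster. The share of Olfr1033 cells with a Ccl19 UMI was 62.4% in DMSO and 71.1% in MVC, and 45.5% and 54.3% after thinning. The median cell stood at 227 CPM in DMSO and 407 CPM in MVC, and the highest at 3201 and 7226 CPM. The 3 cells with the most Ccl19 held 34.0% of the cluster's MVC UMIs and 20.1% of its DMSO UMIs, and the log2 ratio of the SMC-like class went from 0.66 to 0.39 without the 3 highest cells of each library. Ccl19 was the 1 member of 4 past the fold in SMC-like cells, where 16.9% of 8732 genes were higher and 9.25% lower by as much. Dcn in the Olfr1033 cluster was at 152 CPM in DMSO and 751 CPM in MVC; FAP-like RNA at the level of Dcn over the SMC-like class would carry 0.533 Ccl19 UMIs in DMSO and 1.5 in MVC.

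MuSC-like cells, led by Asb5, Hs6st3, Myod1 and Pax7, were the other class in which a large share of cells held Ccl19. Of 145 DMSO cells 60 had a Ccl19 UMI (41.4%, 33.3% to 49.9%), and of 257 MVC cells 126 (49.0%, 42.8% to 55.3%). In B cell-like cells, a class that should lack the transcript, it was 1 of 207 DMSO cells (0.483%) and 5 of 106 MVC cells (4.72%), at median depths of 5088 and 5412 UMIs against 6764 and 6417 UMIs in MuSC-like cells. Capillary EC-like cells had a Ccl19 UMI in 0 of 1713 DMSO cells, which allows a share of up to 0.175%, and in 5 of 1615 MVC cells. The level in MuSC-like cells was 106 CPM (87.2 to 126) in DMSO and 181 CPM (163 to 202) in MVC, a ratio of 1.72 (1.39 to 2.14). It was spread widely, with 18.1% of the UMIs in DMSO and 13.2% in MVC in the 3 highest cells. FAP-like RNA at the level of Dcn would carry 0.147 and 3.14 Ccl19 UMIs, where 116 and 334 were counted.

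**Figure D3:**
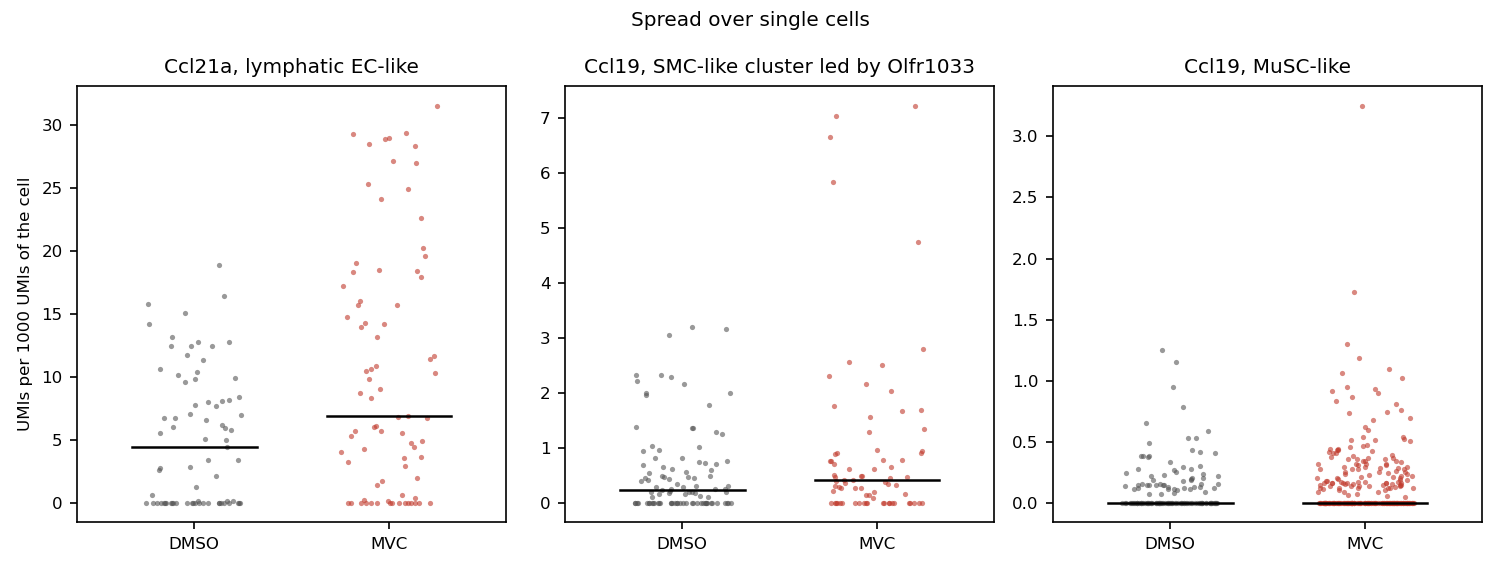
Single cells of the DMSO (grey) and MVC (red) libraries by Ccl21a in lymphatic EC-like cells, Ccl19 in the Olfr1033 cluster and Ccl19 in MuSC-like cells, as UMIs of the gene per 1000 UMIs of the cell; each point is a cell and the black line the median. The cells of both libraries overlapped in each panel, and 5 MVC cells of the Olfr1033 cluster stood above every DMSO cell of that cluster.

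The other members were less evenly spread over MuSC-like cells. Ccl2 was at 338 CPM in DMSO and 470 CPM in MVC, with a UMI in 37.2% and 38.9% of cells, and FAP-like RNA would carry 11.5 of its 372 DMSO UMIs and 123 of its 865 MVC UMIs. Ccl7 was at 113 and 73.3 CPM, a ratio of 0.650 (0.506 to 0.836), with 47.6% of the DMSO UMIs in 3 cells. Ccl11 was at 109 and 163 CPM, and 3 of its 12 positive DMSO cells held 90.8% of the UMIs. FAP-like RNA would carry 6.26 of its 120 DMSO UMIs and 85.2 of its 300 MVC UMIs. Ccl19 was past the fold as higher and Ccl7 as lower among the 4 members with enough UMIs, where 14.4% of 9229 genes were higher and 12.9% lower. Immediate early and heat shock genes respond to cell stress and tissue digestion. Of 20 such genes, 9 were higher and 1 lower in MVC MuSC-like cells. Their median log2 ratio was 0.55 against -0.02 over all genes (10 CPM added to each level). Directions differed between classes. In perineurial-like cells 0 were higher and 16 lower, where 21.7% of all genes were higher and 14.5% lower. Schwann-like cells had 2 higher and 8 lower (17.2% and 10.7% of all genes), and arterial EC-like cells 4 and 0 (11.5% and 6.73%). The part of these shifts in the ratios was not tested.

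Ccl21a was largely a transcript of lymphatic EC-like cells. Lymphatic EC-like cells, led by Mmrn1, Lyve1, Reln and Prox1, were 75 cells in DMSO and 79 in MVC, and held 88.9% and 97.7% of all Ccl21a UMIs. The level was 4115 CPM (3960 to 4275) in DMSO and 9149 CPM (8891 to 9413) in MVC, a ratio of 2.22 (2.12 to 2.33). A UMI was found in 49 DMSO cells (65.3%, 53.5% to 76.0%) and 64 MVC cells (81.0%, 70.6% to 89.0%), and after thinning in 62.7% (50.7% to 73.6%) and 76.6% (65.6% to 85.5%), intervals that overlap. The median cell stood at 4375 CPM in DMSO and 6858 CPM in MVC, and the cell at the 90th percentile at 12621 and 26997 CPM. Over positive cells alone the median was 7649 and 10713 CPM. Cells without a single Ccl21a UMI were present in both libraries, 26 in DMSO and 15 in MVC, so the level was uneven within the class in each. In the other EC-like classes the transcript was at most 2.30 CPM, and in B cell-like cells it was found in 0 of 207 DMSO cells, which allows up to 1.45%, and in 1 of 106 MVC cells.

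The markers of lymphatic endothelium moved less than Ccl21a. Mmrn1 was at 2017 CPM in DMSO and 2131 CPM in MVC, Prox1 at 995 and 894, Reln at 1455 and 1850, and Lyve1 at 2571 and 1720. Ccl2 in the same cells was at 422 and 780 CPM, a ratio of 1.85 (1.58 to 2.16), but 3 cells held 55.9% of the DMSO UMIs and 64.7% of the MVC UMIs. Ccl7 was at 182 and 272 CPM, a ratio of 1.5 (1.16 to 1.93), just under the fold. Ccl21a and Ccl2 were past the fold as higher and 0 members as lower, of 3 with enough UMIs, where 13.6% of 6610 genes were higher and 15.7% lower. Lymphatic EC-like cells had a median of 7418 UMIs in DMSO and 5104 in MVC, and Dcn at 200 and 694 CPM; the part of either in these ratios was not tested.

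Ccl19 and Ccl21a also have near copies. A second row for each, on a separate scaffold, had 0 UMIs in both libraries for Ccl19 and 0 in DMSO and 1 in MVC for Ccl21a, and Ccl21b and Ccl21c had 0 UMIs throughout. Cell Ranger counts only reads that map to 1 gene, so a read shared by copies is left out of every row, and the levels of both genes are uncertain to that extent. The sequence before the start of Ccl21a, which was higher in MVC in its main class, is given. That of Ccl19, also higher in its main class, is not printed, and 212 of its 250 bases lie inside the gene as GENCODE places it. The Ccl21a sequence shows the 250 bases before the start in the RefSeq promoter table (GRCm38.p6), 5' to 3' on the minus strand, at chr4:42773992-42774241, of which 2 bases lie inside the gene as GENCODE places it. Capitals mark the letters CATAAA, which were picked after the sequence had been read.
Ccl21a: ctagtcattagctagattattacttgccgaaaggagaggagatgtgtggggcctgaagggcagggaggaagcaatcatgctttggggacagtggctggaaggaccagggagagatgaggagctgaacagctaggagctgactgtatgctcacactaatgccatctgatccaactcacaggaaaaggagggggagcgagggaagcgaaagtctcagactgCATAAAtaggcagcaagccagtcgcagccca
CATAAA stood 31 bases before the start, and either strand of 11.9% of 32851 promoter windows of 300 bases held it. TATAAA (13.6% of windows), TGANTCA (7.81%) and the NF-kB consensus (8.46%) had no match in the window, on either strand.

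Tenocyte-like cells, which included clusters led by Col22a1 and Thbs4 and by Angptl7 and Wif1, had Ccl2 and Ccl7 but almost no Ccl11. Ccl2 was at 1301 CPM in DMSO and 1351 CPM in MVC, a ratio of 1.04 (0.999 to 1.08), and was detected in 41.7% and 49.5% of 444 and 503 cells. The clusters of the class differed in direction, the Col22a1 cluster having a ratio of 1.21 (1.15 to 1.27) and the Angptl7 cluster of 0.831 (0.782 to 0.883). Ccl7 was at 177 CPM (164 to 191) and 275 CPM (259 to 292), a ratio of 1.55 (1.41 to 1.71), opposite in direction to FAP-like cells, and above 1 in both clusters, 1.203 (1.04 to 1.39) and 1.84 (1.62 to 2.09). Ccl11 had 55 and 34 UMIs, or 13.8 and 8.32 CPM, although Dcn was at 12739 and 12886 CPM, near the 14751 and 11935 CPM of FAP-like cells. It had 50 and 13 UMIs in the Col22a1 cluster and 5 and 21 in the Angptl7 cluster, so its clusters also differed in direction. Ccl7 was past the fold as higher and Ccl11 as lower among 4 members, where 12.6% of 12089 genes were higher and 8.11% lower. Pericyte-like cells had Ccl2 at 969 and 1267 CPM, a ratio of 1.31 (1.22 to 1.41), and Ccl11 at 238 and 169 CPM, a ratio of 0.710 (0.595 to 0.844), so that the neighbours differed in direction. FAP-like RNA at the level of Dcn would carry 113 of the 369 DMSO Ccl11 UMIs and 67.7 of the 203 MVC UMIs there.

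Macrophage-like cells were the main source of Ccl2 and Ccl7 outside the stroma. At resolution 2 there was a macrophage cluster of 76 DMSO and 132 MVC cells. Another cluster, of 77 and 78 cells led by Il1b, Tnip3 and H2-Eb1, matched dendritic and macrophage markers alike. The part of this make-up in the macrophage-like ratios, here and below, was not tested. Ccl2 was at 1222 CPM (1172 to 1273) in the 153 DMSO cells and 1056 CPM (1013 to 1101) in the 210 MVC cells, a ratio of 0.865 (0.815 to 0.917). Ccl7 was at 985 and 594 CPM, a ratio of 0.603 (0.561 to 0.648). Both were found in the same cells, 27.1% of thinned DMSO cells and 26.4% of thinned MVC cells having both, 2.08 and 2.28 times the product of the shares. FAP-like RNA at the level of Dcn would carry 51.3 of the 2285 DMSO Ccl2 UMIs and 63.2 of the 2220 MVC UMIs. Ccl11 had 28 UMIs in DMSO and 207 in MVC, of which 3 MVC cells held 87.0%. FAP-like RNA at the level of Dcn would carry 27.9 and 43.9 Ccl11 UMIs. Ccl11 and Ccl19 were past the fold as higher and Ccl7 as lower among the 4 members with enough UMIs, where 15.1% of 10203 genes were higher and 8.71% lower. The Ccl19 value rested on 22 UMIs in 2 MVC cells.

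**Figure D4:**
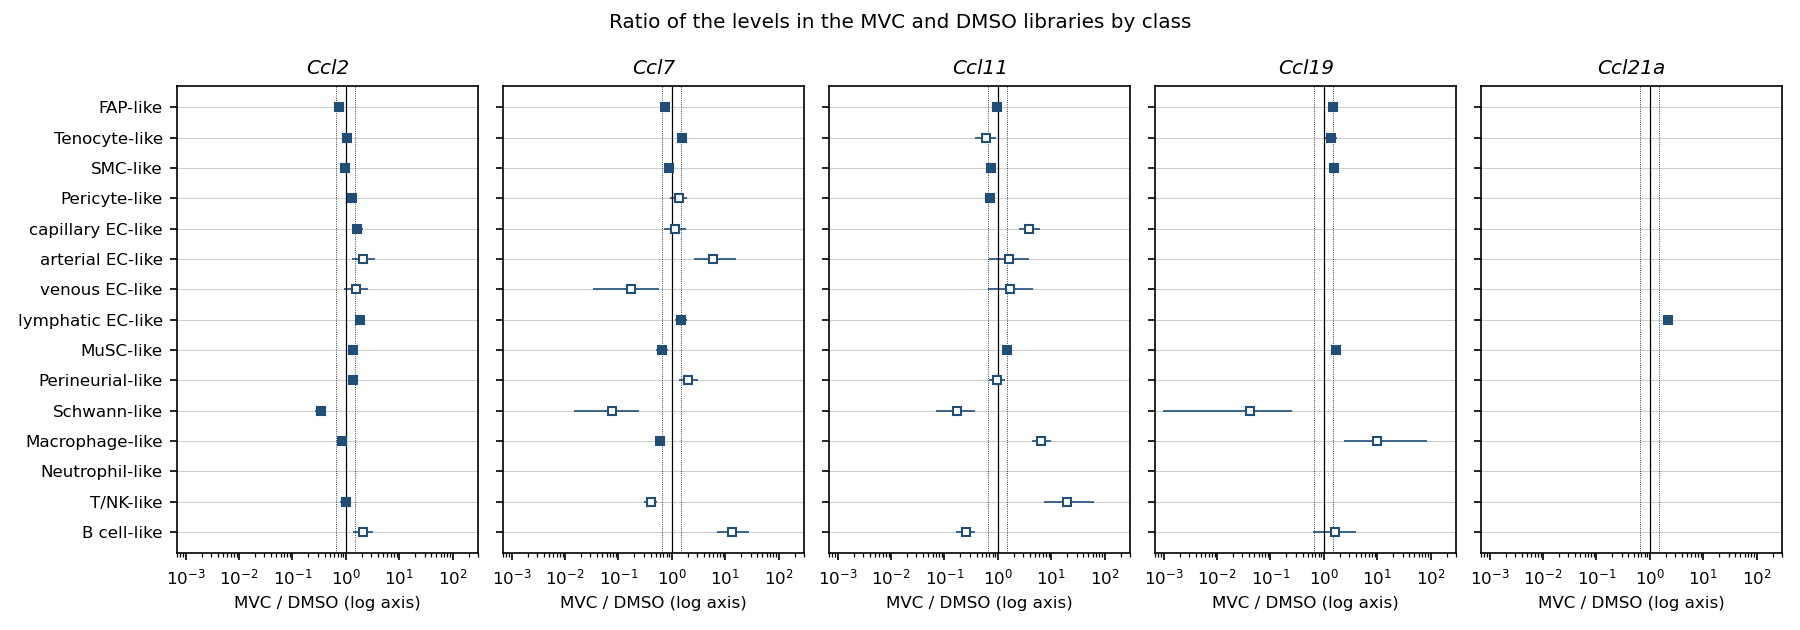
Ratio of the level in the MVC library to that in the DMSO library (log axis) by class, with exact 95% conditional intervals, for classes with at least 20 UMIs of the gene in total and some in both libraries; filled squares have at least 100 UMIs in each library, the solid line marks 1 and the dotted lines a 1.5-fold difference. Ccl2, Ccl7 and Ccl11 fell on both sides of 1 among the classes, and the filled squares of Ccl19 and Ccl21a all lay above 1.

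In the order of levels, Ccl2 in DMSO ran from FAP-like through SMC-like, tenocyte-like, macrophage-like and pericyte-like cells, with the intervals of tenocyte-like and macrophage-like cells overlapping. In MVC it ran from FAP-like through SMC-like, tenocyte-like and pericyte-like to macrophage-like cells, where the intervals of FAP-like and SMC-like, of SMC-like and tenocyte-like, and of tenocyte-like and pericyte-like cells overlapped. Perineurial-like (458 and 632 CPM), lymphatic EC-like, Schwann-like (426 and 146 CPM) and MuSC-like cells lay below these, and capillary, arterial and venous EC-like cells had 14.7 to 34.9 CPM. Venous EC-like cells had 30 and 37 Ccl2 UMIs, where FAP-like RNA at the level of Dcn would carry 43.2 and 51.2, and capillary EC-like cells had 138 and 170, where it would carry 47.1 and 78.5. Perineurial-like cells had 149 and 244 Ccl2 UMIs, where FAP-like RNA would carry 414 and 378. Among the 14 classes with at least 20 Ccl2 UMIs, the interval of the ratio lay above 1 in 7, below 1 in 3 and included 1 in 4. For Ccl7 it lay above 1 in 5 classes and below in 6 of 14, and for Ccl11 above in 4 and below in 6 of 13. For Ccl19 it lay above 1 in 5 of 7 classes and below in 1, Schwann-like cells, where the DMSO value rested on 21 UMIs in 2 cells. Among the 5, the macrophage-like MVC value rested on 22 UMIs in 2 cells. Tenocyte-like cells, also among the 5, had a Ccl19 ratio of 0.814 (0.546 to 1.21) in the Col22a1 cluster. It was 2.09 (1.43 to 3.10) in the Angptl7 cluster.

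A small cluster outside the named classes held the highest Ccl2 and Ccl7 levels of any cluster. It depended on the clustering: at resolution 2 a cluster led by Apod had 171 cells and counted as FAP-like, and with chemokine genes kept or with the libraries centred no cluster had Apod among its 10 leading genes. It comprised 54 DMSO and 16 MVC cells led by Apod, Gpc3, Lif and Slc1a3, with Dcn at 17138 and 17400 CPM, Pdpn at 922 and 284 CPM and Pdgfra at 216 and 527 CPM. Ccl2 was at 9890 CPM (9617 to 10168) in DMSO and 7017 CPM (6504 to 7560) in MVC, and Ccl7 at 3614 and 1886 CPM. Ccl11 was at 3340 and 2089 CPM. With 16 MVC cells, 3 of them held 72.5% of the Ccl2 and 90.9% of the Ccl7 UMIs, so the ratios of 0.710 and 0.522 rested on few cells. Ccl19 was at 244 CPM in DMSO, in 15 of 54 cells, and at 771 CPM in MVC, where all 76 UMIs were in 2 cells. A second unnamed cluster, of 22 DMSO and 26 MVC cells led by Pappa2, had Ccl2 at 902 and 1854 CPM and Ccl7 at 240 and 1565 CPM, with 87.7% and 69.0% of the Ccl7 UMIs in 3 cells.

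The Apod cluster also had Ccl21a outside the lymphatic class, in the DMSO library. It had 313 Ccl21a UMIs in 8 of 54 DMSO cells, 622 CPM (555 to 694), of which 3 cells held 89.5%, and 0 UMIs in the 16 MVC cells, which allows up to 30.4 CPM. Of the kept cells outside the lymphatic class, 6 had at least 5 Ccl21a UMIs, 5 of them in this cluster in DMSO, all 5 with Ccl2, Ccl7, Ccl19, Pdpn and Dcn UMIs and with 0 Prox1 UMIs. The sixth was an MVC cell of the B cell-like cluster with 72 Ccl21a UMIs, 7 of Prox1, 12 of Pdpn and 7 of Cd79a. Cxcl13, which with Ccl19 and Ccl21 is typical of lymphoid stroma, had 161 UMIs in the DMSO cells of the Apod cluster and 0 in its MVC cells, Tnfsf11 had 14 and 0, and Madcam1 0 in both. For Cxcl13 this was 320 CPM in DMSO, in 11.1% of the cells, near the 328 CPM of DMSO FAP-like cells. A single cell held 69 of the 161 UMIs.

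Of the 10 lymphoid stroma genes, 9 had enough UMIs over all cells. None was past the fold as higher and 3 were lower (Cxcl13, Bst1 and Tnfsf11), where 9.52% of all genes were higher and 7.54% lower. Most Tnfsf11 UMIs, 70 of 101 in DMSO and 36 of 53 in MVC, lay in T/NK-like cells. Within that class Tnfsf11 was higher in MVC, at 40.5 and 70.3 CPM (ratio 1.735, 1.127 to 2.629). The class itself numbered 195 cells in DMSO and 61 in MVC. Bst1 was lower within neutrophil-like, macrophage-like and venous EC-like cells, with ratios of 0.615, 0.622 and 0.546. In FAP-like cells Cxcl13, the attractant of B cells, was at 328 CPM in DMSO and 34.7 CPM in MVC, a ratio of 0.106 (0.0961 to 0.116), while the adhesion gene Vcam1 was at 48.5 and 90.5 CPM, a ratio of 1.87 (1.69 to 2.06). Summed over the FAP-like class, the direction of Cxcl13 was opposite to that of Ccl19. Single cells were not compared for Cxcl13. Of 12 cytokine-induced genes in FAP-like cells, 2 were higher (Cxcl5 and Vcam1) and 0 lower, where 14.8% of all genes were higher and 5.05% lower, with a median log2 ratio of -0.07 against 0.06 over all genes (10 CPM added to each level). Nfkbia, the inhibitor of NF-kB that NF-kB itself induces, had a ratio of 0.837 (0.815 to 0.860) and Il6 of 0.896 (0.869 to 0.924) there, while Tnfaip3 at 1.16 (1.08 to 1.24) and Icam1 at 1.22 (1.17 to 1.26) lay on the other side of 1. Of 20 immediate early and heat shock genes in FAP-like cells, Hsph1 was higher and Fosb and Socs3 were lower, against the same shares of all genes, with a median of 0.02.

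The genes most alike each member in level over the 26 clusters of at least 50 cells, by Pearson r of log2(CPM + 1), were Gm17268 (0.940), Ank2 (0.908), Pi4k2a, Gm31522 and Sh3pxd2b for Ccl2. They were Lif (0.829), Ccl2 (0.815), Mcoln2, Slc1a3 and Dnaja2 for Ccl7, and Ms4a4d (0.902), Grm8 (0.897), the hyaluronan synthase Has2, Il1rl2 and Fst for Ccl11. For Ccl19 they were Slc1a3 (0.813), Gm17167 (0.790), Mirg, Cxcl1 and Lsm12. These clusters share libraries and depth, and the values are descriptions among 13095 genes. Between members, r was 0.69 to 0.81 for every pair of Ccl2, Ccl7, Ccl11 and Ccl19, and 0.07 to 0.22 for Ccl21a with each of them. For Ccl21a the most alike were Ccl20 (0.760), Mmrn1 (0.754), Wipf3, Dlg1 and Reln, but 430 of the 432 Ccl20 UMIs were in 1 lymphatic EC-like DMSO cell that had 0 Ccl21a UMIs.

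The receptors of these ligands were mostly leukocyte transcripts. Ccr2, for Ccl2 and Ccl7, had 348 UMIs in DMSO and 370 in MVC, and was at 105 and 147 CPM in macrophage-like cells, a ratio of 1.40 (1.17 to 1.68). Ccr3, for Ccl7 and Ccl11, had 12 and 2 UMIs, too few to compare. Ccr7, for Ccl19 and Ccl21, had 1009 UMIs in DMSO and 361 in MVC. Its level within B cell-like cells was 295 and 260 CPM, a ratio of 0.883 (0.734 to 1.06). Within T/NK-like cells it was at 193 and 39.0 CPM, a ratio of 0.202 (0.122 to 0.317), with 20 UMIs in MVC, and within macrophage-like cells at 161 and 69.5 CPM, a ratio of 0.432 (0.352 to 0.528). B cell-like cells numbered 207 in DMSO and 106 in MVC and T/NK-like cells 195 and 61. Of 10 CC receptors reported here, 8 had enough UMIs over all cells, of which 1 was past the fold as higher in MVC, Ccr9 at 1.75 (1.35 to 2.28), and 5 as lower (Ccr4, Ccr6, Ccr7, Ccr8 and Ccrl2), where 9.52% of all genes were higher and 7.54% lower. Within T/NK-like cells, their main class, Ccr8 had a ratio of 1.10 (0.538 to 2.09) and Ccr4 of 0.81 (0.272 to 2.02). Ccr6 had a ratio of 0.960 (0.642 to 1.42) in B cell-like cells, its main class. In T/NK-like cells it had 35 UMIs in DMSO and 3 in MVC.

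The atypical receptors, which bind chemokines without G protein signalling and clear or present them, were transcripts of stroma and vessels. Ackr1, which carries inflammatory chemokines across venules, was at 670 CPM in DMSO and 515 CPM in MVC in venous EC-like cells, a ratio of 0.769 (0.704 to 0.840). Ackr2, which degrades Ccl2, Ccl7 and Ccl11 among others, had 79.2% of its UMIs in FAP-like cells, at 24.2 and 16.6 CPM, a ratio of 0.685 (0.575 to 0.816). Ackr3, a scavenger of Cxcl12, was at 352 and 255 CPM in FAP-like cells. Ackr4, the scavenger of Ccl19 and Ccl21, had 154 and 127 UMIs over all cells, a ratio of 0.900 (0.706 to 1.15). Ccrl2, counted with the receptors above, binds the chemoattractant chemerin and had 951 and 555 UMIs over all cells and a ratio of 0.383 (0.300 to 0.485) in macrophage-like cells. None of the 4 atypical receptors was past the fold over all cells.

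Of the 18 other CC ligands, 13 had enough UMIs, of which 4 were higher over all cells (Ccl8, Ccl12, Ccl17 and Ccl24) and 2 lower (Ccl6 and Ccl20), where 9.52% of all genes were higher and 7.54% lower. Their median log2 ratio was 0.00 against 0.02 over all genes. Ccl8 and Ccl12 lie beside Ccl11 on chromosome 11, but their main class was macrophage-like. There Ccl8 was at 86.6 CPM in DMSO and 268 CPM in MVC, a ratio of 3.10 (2.60 to 3.71), and Ccl12 at 61.5 and 140 CPM, a ratio of 2.28 (1.83 to 2.85), while Ccl7 in those cells was lower. Ccl3 and Ccl4, attractants of monocytes and T cells, were lower in MVC macrophage-like cells, with ratios of 0.632 (0.578 to 0.691) and 0.830 (0.798 to 0.863), as was Ccl6, 0.509 (0.469 to 0.551). Ccl9 had a ratio of 0.914 (0.831 to 1.01). Ccl5, an attractant of T cells, had its main class in T/NK-like cells, at 1106 and 2540 CPM, beside 195 and 61 cells. Ccl25 was at 12.9 and 15.6 CPM in FAP-like cells, the class with the largest share of its UMIs. In FAP-like cells 6 of the 18 had enough UMIs, of which Ccl5 was higher and Ccl8 lower, where 14.8% of all genes were higher and 5.05% lower.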

How the data were processed

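Per the labels, the authors made the deposited counts with Cell Ranger 7.0.0 on mm10 (Seurat 5.0.1 is also named): raw UMI counts per gene and cell barcode, 1 matrix for each of the 2 libraries, neither normalized nor annotated. The members and gene lists were chosen with earlier results of these data known. Cells under 500 genes or over 10% mitochondrial UMIs were dropped, leaving 5437 (38748234 UMIs) and 5454 (35518029 UMIs). Counts were scaled to 10000 UMIs per cell. The 2000 most variable genes, without chemokines and their receptors, gave 30 principal components, 20 nearest neighbours and Leiden clusters at resolution 1 (leidenalg 0.10.2, scikit-learn 1.9.0, scipy 1.17.1). Clusters were named by at least 3 raised markers of a list. Doublets were scored against simulated ones; 236 DMSO and 238 MVC cells were called, kept, and removed in an alternative. All 5 members were computed in every class, in the text or the plots. Beside them were named Ccr2, Ccr3, Ccr7, Ccrl2, Ackr1, Ackr2 and Ackr4, listed genes with at least 1000 UMIs, and the 5 genes most alike each member. Ccl12 and the genes named from the other lists were named after their values were seen, as were the small clusters. The ratio code was checked on simulated counts. Alternatives changed the filter, doublets, scaling, averaging, depth, highest cells, clustering genes, resolution and centring. Gene positions came from GENCODE M21, where 32235 of 32285 feature IDs were found. One receptor of the lists is not reported here.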

Additional observations from a re-analysis of the deposited data

Results flagged for a closer look

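Among classes with at least 100 UMIs of the gene in total and 20 in each library, the highest and the lowest ratio MVC over DMSO had intervals on opposite sides of 1 for Ccl2, Ccl7 and Ccl11; with 1 library per group the difference between the classes was not tested. Ccl2 had a ratio of 1.85 in lymphatic EC-like cells and 0.343 in Schwann-like cells, where 3 of 99 DMSO cells held 75.6% of its UMIs and 3 of 127 MVC cells 73.0%. Ccl7 had a ratio of 2.02 in perineurial-like cells, where 3 of 53 MVC cells held 77.4% of the UMIs, and 0.402 in T/NK-like cells, where 3 of 195 DMSO cells held 74.6%. Ccl11 had a ratio of 6.58 in macrophage-like cells, where 3 MVC cells held 87.0% of the UMIs, and 0.252 in B cell-like cells, where all 186 DMSO UMIs were in 3 cells. The 28 DMSO Ccl11 UMIs of macrophage-like cells stood beside the 27.9 that FAP-like RNA at the level of Dcn would carry.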

How the results depend on the processing

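Of 79 values under alternatives, over 10 results (5 genes, each over all cells and in its main class), 48 stayed within the counting interval of the log2 ratio, 30 moved outside it and 1 changed sign. Ccl2 over all cells was -0.20, with 0.070 after thinning to 2000 UMIs, -0.26 with median ratio scaling and -0.032 as a mean over cells. Ccl2 in FAP-like cells was -0.41, with -0.53 by median ratio scaling, -0.27 as a mean over cells, -0.21 thinned, -0.53 with chemokine genes kept in the clustering, -0.63 at resolution 2 and -0.17 with clusters weighted as in DMSO, the last chosen after seeing the data. Ccl7 over all cells was -0.26, with -0.29 without doublets, -0.32 by median ratio, -0.12 as a mean over cells and -0.089 thinned. Ccl7 in FAP-like cells was -0.39, with -0.51, -0.27, -0.48, -0.72 and -0.19 by median ratio, mean over cells, chemokine genes kept, resolution 2 and weighted clusters. Ccl11 over all cells moved from -0.08 to -0.14 by median ratio, and in FAP-like cells from -0.06 to -0.18 by median ratio, -0.15 thinned, -0.15 with chemokine genes kept and -0.14 at resolution 2. Ccl19 over all cells moved from 0.65 to 0.91 thinned, and in SMC-like cells from 0.66 to 0.39 without the 3 highest cells. Ccl21a over all cells moved from 0.83 to 1.005 as a mean over cells and 1.05 thinned, and in lymphatic EC-like cells from 1.15 to 1.23 without doublets, 1.02 as a mean over cells, 0.94 thinned and 1.25 without the 3 highest cells. At resolution 2 the FAP-like class held a different set of cells. A cluster of 203 DMSO and 136 MVC cells led by Ifi203, Ifi205 and C7 was unnamed there and so left out. The Apod cluster of 171 cells was included. The causes of the moves were not tested.

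No paired analysis was possible because each group was 1 library. Without replicates, the spread between mice is unknown, and values from classes with few cells or few positive cells are the least firm. In venous EC-like, perineurial-like and tenocyte-like cells the Ccl2 UMIs of both libraries were fewer than FAP-like RNA at the level of Dcn would carry. Leaving out a library was not possible for the same reason.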
